A study of Homo sapiens with 18 samples.

Results

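Untreated MDA-MB-231 cells with a short hairpin RNA that targets IGFBP6 (sh-IGFBP6) were compared with untreated MDA-MB-231 cells carrying a hairpin against luciferase (sh-LUC), across every gene expressed in them. The comparison used 6 of the 18 libraries of the study, 3 per line. The other 12 libraries came from the same pair of lines under docosahexaenoic acid (DHA, a polyunsaturated fatty acid, 200 uM) or erastin (an inhibitor of cystine import, 2.5 uM). MDA-MB-231 is an established human cell line from a triple-negative breast cancer, and the labels give the genotype of the sh-LUC cells as WT and that of the sh-IGFBP6 cells as a knockdown of IGFBP6. All 6 libraries came from wells seeded with 800000 cells and kept for 24 h in vehicle, 0.5% DMSO with 0.5% ethanol. Each hairpin stands for 1 line, and whether the lines are clones or pools is not given in the sources used here. An effect of the hairpin and any other difference between the lines therefore cannot be told apart.

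IGFBP6 is a secreted protein that binds insulin-like growth factors, with a preference for IGF-II, and keeps them from their receptor. Short hairpins are processed into small RNAs that lower the target mRNA through the RNA interference machinery, and a hairpin against luciferase has no target in human cells. MDA-MB-231 is a mesenchymal-like line of the basal B class, known for matrix degradation and invasion.

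Gene counts summed to 2994716, 4660268 and 3678631 in the 3 sh-IGFBP6 libraries and to 2708143, 3224979 and 4043424 in the 3 sh-LUC libraries. Levels are given as CPM, the counts scaled to one common library total after TMM normalization, not divided by transcript length. IGFBP6 stood at 0.602, 1.35 and 2.22 CPM in sh-IGFBP6 cells, against 20.9, 20.1 and 17.3 CPM in sh-LUC cells. The 3 sh-IGFBP6 values lay below all 3 sh-LUC values, with a log2 fold change of -3.72 ± 0.27 (SE; sh-IGFBP6 minus sh-LUC, as throughout). Of 11 tested markers of the basal B class, 5 were called higher, 5 lower and 1 was not called. All 12 listed basal B markers summed to 6431 to 6513 CPM in sh-IGFBP6 libraries, against 6573 to 6895 CPM in sh-LUC libraries. Summed levels here and below take in every listed member of a group, tested or not. Of 12 tested luminal markers 9 were called lower, 2 higher and 1 (ESR1, the estrogen receptor) was not called. All 16 listed luminal markers summed to 870 to 935 CPM in sh-IGFBP6 libraries, against 1701 to 1709 CPM in sh-LUC libraries. FOXA1 and SPDEF, transcription factors of luminal cells, went in opposite directions: FOXA1 had 443 counts in sh-IGFBP6 cells and 1 in sh-LUC cells, and SPDEF 8 in sh-IGFBP6 cells and 525 in sh-LUC cells. CDKN2A, CDKN2B, MTAP and DMRTA1, neighbours on the short arm of chromosome 9 that are known to be deleted in MDA-MB-231, had no count in any of the 6 libraries.

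The lines differed at 64.6% of the 15189 genes tested, where a call is a Benjamini-Hochberg adjusted p below 0.05 by the quasi-likelihood test of edgeR. Genes called higher in sh-IGFBP6 cells were 32.5% of those tested and genes called lower 32.1%. Calls of at least 2-fold took 26.4% of tested genes. Calls of at least 4-fold took 10.8%, with 743 genes higher and 896 lower. At least 16-fold separated the lines at 306 genes called higher and 345 called lower. At 67.3% of tested genes the 3 libraries of each line did not overlap. These are bulk libraries, in which fewer cells of a type and less RNA per cell cannot be told apart. The labels do not say whether the 3 wells of a line are separate cultures. The p-values therefore measure the spread between libraries of a group, estimated over all 18 libraries of the study. The median log2 fold change over all tested genes was 0.0062, which TMM scaling largely sets, since it centres the bulk of genes near 0. The near-equal shares called in each direction depend in part on that scaling too. The first principal component, which held 88.9% of the variance, separated the lines. Long intergenic RNAs leaned towards sh-IGFBP6, with 247 called higher, 130 lower and 262 not called among 639 tested and a median of 0.38. Protein-coding genes were split, with 4184 called higher and 4380 lower among 12498. Counts of called genes in the groups below are to be read beside the shares over all tested genes given here.

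**Figure D1:**
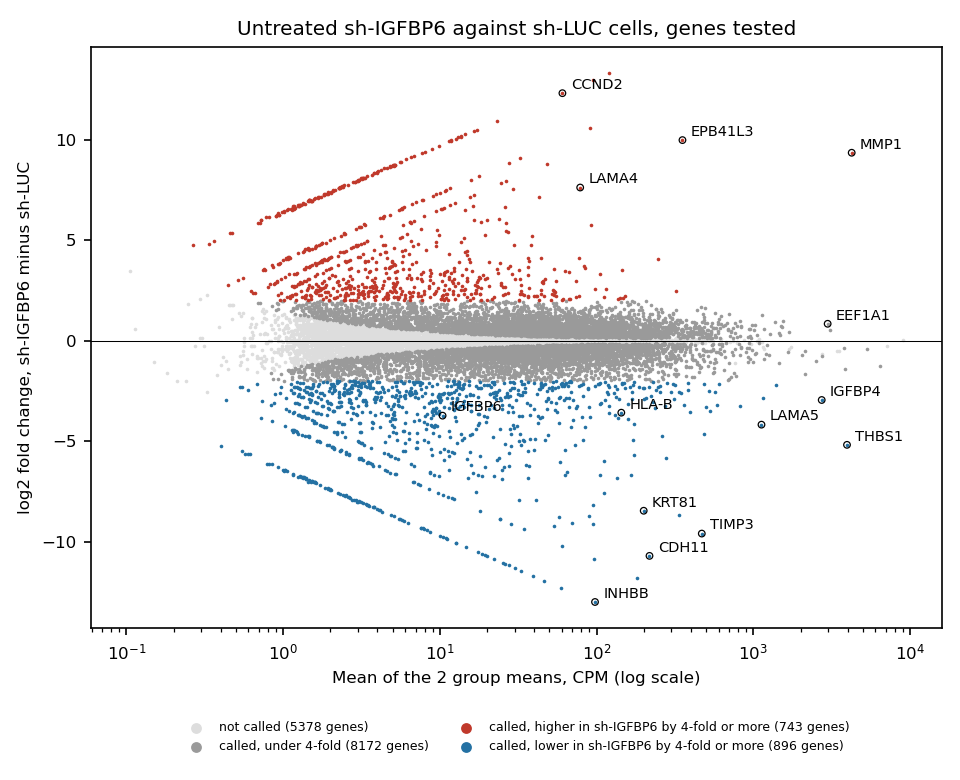
Log2 fold change of sh-IGFBP6 against sh-LUC cells (y axis) by the mean of both group means in CPM (x axis, log scale), 1 point per tested gene. The 743 genes called higher by 4-fold or more and the 896 called lower spread over the whole range of levels, with MMP1 and THBS1 among the most abundant of them.

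The largest gain in RNA belonged to a collagenase. MMP1, the interstitial collagenase that cuts fibrillar collagens, stood at 8653, 8581 and 8141 CPM in sh-IGFBP6 cells, against 21.9, 8.42 and 10.1 CPM in sh-LUC cells. The 2 groups lay far apart, and the log2 fold change was 9.34 ± 0.31 (SE; edgeR adjusted p = 3.4e-12). The next gains in CPM were EEF1A1, DYNC1H1, HSP90AA1, HMGA1, RPLP0, GAPDH, EPB41L3, HSPA8 and RPS2, a set of translation, chaperone, motor and glycolysis genes with HMGA1, an architectural chromatin protein, and EPB41L3. All but EPB41L3 were abundant in both lines: HMGA1 stood at 1565, 1580 and 1649 CPM in sh-IGFBP6 cells, against 656, 697 and 635 CPM in sh-LUC cells. EPB41L3, a cytoskeletal band 4.1 protein that links membrane proteins to actin, stood at 702, 709 and 703 CPM in sh-IGFBP6 cells, against 0.354, 0.601 and 0.958 CPM in sh-LUC cells. For EEF1A1, GAPDH and RPS2, which have many processed pseudogenes, how the authors' counting placed shared reads is not known, so their values are less certain.

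The largest losses were matrix, cytoskeletal and nuclear RNAs. THBS1, the matricellular protein thrombospondin-1, stood at 209, 195 and 235 CPM in sh-IGFBP6 cells, against 7604, 7315 and 8165 CPM in sh-LUC cells, a log2 fold change of -5.17 ± 0.09 (SE). LAMA5, a laminin alpha chain of basement membranes, stood at 123, 124 and 108 CPM in sh-IGFBP6 cells, against 2287, 2168 and 1946 CPM in sh-LUC cells. MALAT1, a nuclear-retained noncoding RNA, stood at 3598, 4072 and 3504 CPM in sh-IGFBP6 cells, against 8350, 9193 and 9602 CPM in sh-LUC cells. The largest losses, like the gains, were taken among called genes whose libraries do not overlap between the lines, so that separation is no result. IGFBP4, PLEC, ACTG1, ITGA3, FN1, MYH9 and ACTB made up the rest of the 10 largest losses. Among these the actin genes differed unequally: the log2 fold change was -1.67 for ACTG1 and -0.40 for ACTB, and ACTB was not called when scaled by library size alone (-0.30).

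Genes of the extracellular matrix were mostly lower in sh-IGFBP6 cells, with a few large exceptions. Of 20 tested collagens 14 were called lower, 5 higher and 1 was not called, with a median log2 fold change of -1.62. Of 36 tested laminins and matrix glycoproteins 23 were called lower, 8 higher and 5 not called, with a median of -1.0. Their summed level was 3217 to 3307 CPM in sh-IGFBP6 libraries, against 16524 to 16968 CPM in sh-LUC libraries. THBS1 alone made up most of that gap, at means of 213 CPM in sh-IGFBP6 cells and 7695 CPM in sh-LUC cells. Among the lower genes were EFEMP1 (fibulin-3), at 12.9, 11 and 8.61 CPM in sh-IGFBP6 cells, against 312, 335 and 346 CPM in sh-LUC cells, and HSPG2 (the proteoglycan perlecan), with a log2 fold change of -2.60. COL4A1, a chain of the basement membrane collagen, averaged 58.9 ± 4.8 CPM in sh-IGFBP6 cells and 218 ± 4.5 CPM in sh-LUC cells (SD, n = 3 each). The exceptions were laminin alpha chains other than LAMA5. LAMA4 stood at 159, 163 and 146 CPM in sh-IGFBP6 cells, against 0.354, 0.601 and 1.2 CPM in sh-LUC cells. LAMA1 stood at 54.2, 51.7 and 48.2 CPM in sh-IGFBP6 cells, against 1.42, 0.902 and 1.2 CPM in sh-LUC cells. The lines thus held different laminin alpha messages, LAMA4 and LAMA1 being called higher and LAMA5 lower. COL27A1, a fibrillar collagen chain, was also higher, at 65.8 ± 6.5 CPM in sh-IGFBP6 cells and 6.97 ± 1.8 CPM in sh-LUC cells (SD, n = 3 each).

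Matrix proteases and their inhibitors changed in both directions in each of the groups tested. Of 27 tested matrix metalloproteases, TIMPs and ADAMTS proteases 16 were called lower, 7 higher and 4 not called, and their summed level was nevertheless higher, at 9834 to 10379 CPM in sh-IGFBP6 libraries, against 3587 to 3688 CPM in sh-LUC libraries, since MMP1 made up most of the first sum. MMP3 (stromelysin-1), which lies beside MMP1 on chromosome 11, stood at 95.2, 85.8 and 106 CPM in sh-IGFBP6 cells, against 0.354, 0 and 0.240 CPM in sh-LUC cells. TIMP3, a matrix-bound inhibitor of metalloproteases, went the other way, at 0.903, 0.578 and 2.22 CPM in sh-IGFBP6 cells, against 924, 961 and 923 CPM in sh-LUC cells. No sh-IGFBP6 library came near the sh-LUC values, and the log2 fold change of TIMP3 was -9.59 ± 0.14 (SE; edgeR adjusted p = 2.1e-49). TIMP2 was lower as well, by less, with a log2 fold change of -1.08. In the plasminogen system, which activates metalloproteases and dissolves clots, 9 of 17 tested genes were called higher, 7 lower and 1 was not called. SERPINB2, an inhibitor of plasminogen activators, stood at 82.8, 87.3 and 86.1 CPM in sh-IGFBP6 cells, against 1.06, 0.601 and 0.240 CPM in sh-LUC cells. TFPI2, an inhibitor of plasmin and related serine proteases, had a log2 fold change of 2.98, while F3 (tissue factor), the starter of clotting, had one of -2.53.

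**Figure D2:**
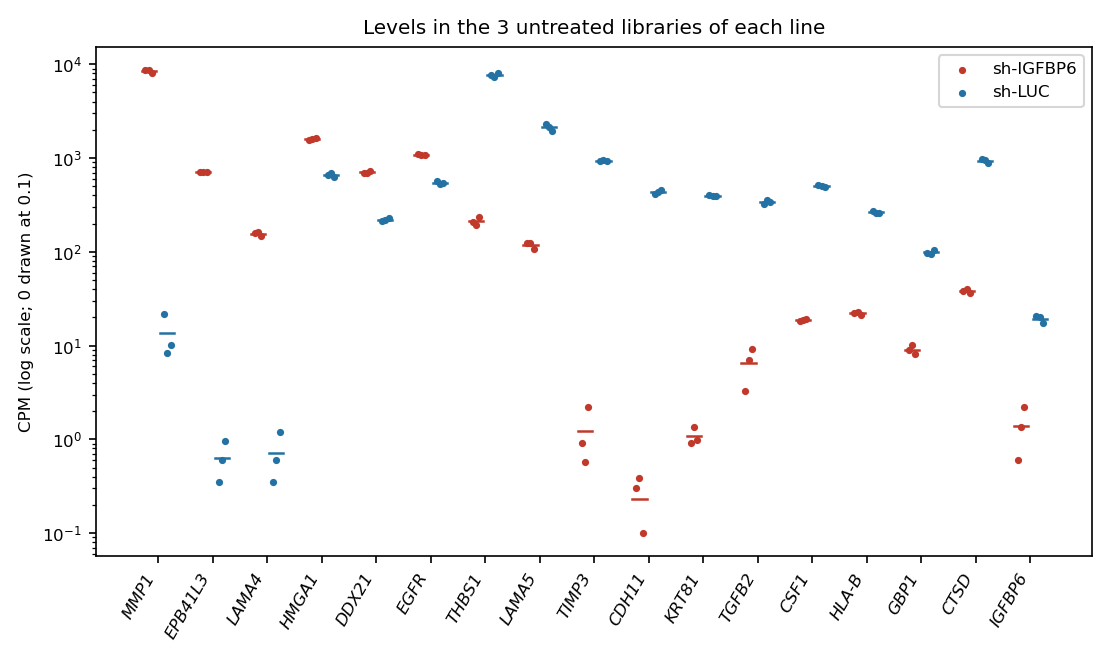
CPM on a log scale (y axis) of 17 genes in each untreated library, sh-IGFBP6 left and sh-LUC right in each pair, with points for libraries, bars for group means and 0 drawn at 0.1. The 3 libraries of a line lie close together at the levels above 10 CPM. The genes shown were chosen with results of these data known, so that the lines do not overlap for any of them is no result.

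Adhesion receptors and junction proteins were lower in larger number than higher. Of 16 tested integrin subunits 10 were called lower, 2 higher and 4 not called, with a median of -1.35. ITGB4, the partner of the alpha 6 chain that binds laminin in hemidesmosomes, stood at 19, 21.4 and 15 CPM in sh-IGFBP6 cells, against 343, 334 and 303 CPM in sh-LUC cells. ITGB3, the beta chain of a vitronectin receptor, averaged 1.11 ± 0.58 CPM in sh-IGFBP6 cells and 124.5 ± 11 CPM in sh-LUC cells (SD, n = 3 each). ITGA2, a collagen receptor chain, and ITGA7, a laminin receptor chain, were the 2 called higher, with log2 fold changes of 0.37 and 3.79, although ITGA2 was not called when scaled by library size alone (0.48). Of 27 tested cadherins and junction genes 16 were called lower, 8 higher and 3 not called. CDH11, a mesenchymal cadherin, stood at 0.301, 0.385 and 0 CPM in sh-IGFBP6 cells, against 412, 438 and 454 CPM in sh-LUC cells. CDH4 (R-cadherin) was higher, at 254, 273 and 297 CPM in sh-IGFBP6 cells, against 78.2, 68.8 and 74.0 CPM in sh-LUC cells. The desmosome genes DSP and JUP were lower, with log2 fold changes of -2.88 and -2.18, and GJA1 (connexin 43) was higher, with one of 2.28.

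Of 16 tested keratins and other intermediate filament genes 10 were called lower, 3 higher and 3 not called. KRT81, a hair-type keratin that breast cancer lines can express, stood at 0.903, 1.35 and 0.985 CPM in sh-IGFBP6 cells, against 401, 395 and 398 CPM in sh-LUC cells. KRT7, a keratin of simple epithelia, stood at 116, 109 and 133 CPM in sh-IGFBP6 cells, against 663, 619 and 646 CPM in sh-LUC cells. VIM, the mesenchymal filament protein vimentin, was higher, with a log2 fold change of 0.59. Factors of epithelial-mesenchymal transition were mixed, with 4 called higher, 3 lower and 4 not called among 11 tested. That is 63.6% called, against 64.6% of all tested genes. SNAI2 was lower, at 2.68 ± 1.35 CPM in sh-IGFBP6 cells and 35.4 ± 4.2 CPM in sh-LUC cells, and TCF4 higher, at 46.0 ± 9.8 CPM in sh-IGFBP6 cells and 8.82 ± 0.89 CPM in sh-LUC cells (SD, n = 3 each). Axon guidance genes were also split, with 19 called lower, 13 higher and 5 not called among 37 tested semaphorins, plexins and related genes. PLXNA1, a semaphorin receptor, stood at 155, 158 and 158 CPM in sh-IGFBP6 cells, against 1521, 1455 and 1456 CPM in sh-LUC cells, whereas the Slit receptor ROBO1 had a log2 fold change of 2.06.

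Ligands and receptors of growth control changed in both directions, and genes called lower outnumbered those called higher in the insulin-like growth factor, TGF-beta and WNT groups. Of 16 tested genes of the insulin-like growth factor system, to which IGFBP6 belongs, 9 were called lower, 2 higher and 5 not called, with a median of -0.72. Their summed level was 2070 to 2101 CPM in sh-IGFBP6 libraries, against 6588 to 7004 CPM in sh-LUC libraries. IGFBP4 alone made up most of that gap, at means of 626 CPM in sh-IGFBP6 cells and 4828 CPM in sh-LUC cells. STC1, the secreted protein stanniocalcin-1, was one of the 2 higher ones, at 111, 125 and 110 CPM in sh-IGFBP6 cells, against 9.2, 9.92 and 12 CPM in sh-LUC cells. Of 35 tested WNT ligands, receptors and targets 16 were called lower, 6 higher and 13 not called, with a median of -0.31. The share called, 62.9%, was near the 64.6% over all tested genes. The receptor FZD7 had a log2 fold change of -1.89, and WLS, which carries WNT proteins to the cell surface, one of 1.10. Of 46 tested genes of TGF-beta, activin and BMP signalling 29 were called lower, 7 higher and 10 not called, with a median of -0.91. The ligand TGFB2 stood at 3.31, 6.94 and 9.11 CPM in sh-IGFBP6 cells, against 326, 355 and 336 CPM in sh-LUC cells. BMP4 stood at 23.5, 23.7 and 22.6 CPM in sh-IGFBP6 cells, against 218, 219 and 218 CPM in sh-LUC cells. SMAD6 and ID4, which BMP signalling is known to induce, averaged 3.87 ± 0.56 and 2.81 ± 0.92 CPM in sh-IGFBP6 cells, against 140.9 ± 8.0 and 91.4 ± 8.2 CPM in sh-LUC cells (SD, n = 3 each). LTBP3, which holds latent TGF-beta in the matrix, had a log2 fold change of -3.10. FST, the activin-binding protein follistatin, was higher, with a log2 fold change of 1.49.

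Among 28 tested ligands of the EGF, FGF, PDGF, VEGF and related families 12 were called higher, 14 lower and 2 not called. CSF1, the growth factor of macrophages, stood at 18.4, 18.9 and 19.2 CPM in sh-IGFBP6 cells, against 516, 506 and 495 CPM in sh-LUC cells. VEGFA stood at 41.9, 55.5 and 49.5 CPM in sh-IGFBP6 cells, against 371, 373 and 340 CPM in sh-LUC cells. The EGFR ligands EREG and AREG were higher, with log2 fold changes of 1.88 and 2.25, and so was EGFR itself, at 1097, 1082 and 1089 CPM in sh-IGFBP6 cells, against 563, 523 and 545 CPM in sh-LUC cells. Of 24 tested receptor tyrosine kinases 9 were called higher, 12 lower and 3 not called. Of 37 chemokines and their receptors only 12 were tested, and of these 8 were called higher, 2 lower and 2 not called. The filter left out CCR7, with 1 count in sh-IGFBP6 cells and 27 in sh-LUC cells. It kept CCL20, called higher with 12 counts in sh-IGFBP6 cells and 1 in sh-LUC cells. The tested genes therefore do not stand for the whole group. The receptor CXCR4 stood at 44.6, 40.5 and 44.6 CPM in sh-IGFBP6 cells, against 3.54, 3.61 and 5.03 CPM in sh-LUC cells. Of 38 tested interleukins and cytokine receptors 22 were called lower, 11 higher and 5 not called, and the cytokine IL24 was among the higher ones, at 46.7 ± 2.5 CPM in sh-IGFBP6 cells and 0.717 ± 0.48 CPM in sh-LUC cells (SD, n = 3 each).

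Antigen presentation and interferon-stimulated genes were mostly lower in sh-IGFBP6 cells. Of 23 tested HLA and antigen presentation genes 16 were called lower, 2 higher and 5 not called, with a median of -1.50. HLA-B, a class I molecule that presents peptides to T cells, stood at 22.3, 22.9 and 21.2 CPM in sh-IGFBP6 cells, against 275, 259 and 261 CPM in sh-LUC cells. HLA-C had a log2 fold change of -2.33, and since class I genes are near-identical copies, the division of reads among them is uncertain. NLRC5, the transactivator of class I genes, averaged 11.8 ± 3.1 CPM in sh-IGFBP6 cells and 58.1 ± 2.3 CPM in sh-LUC cells, and TAPBP, which loads peptides, 180.4 ± 12.5 CPM in sh-IGFBP6 cells and 627.5 ± 21.3 CPM in sh-LUC cells (SD, n = 3 each).

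Of 47 tested interferon-stimulated genes 30 were called lower, 9 higher and 8 not called, with a median of -0.92. GBP1, a guanylate-binding protein of host defence, stood at 9.03, 10.0 and 8.12 CPM in sh-IGFBP6 cells, against 96.2, 95.9 and 105 CPM in sh-LUC cells. OAS3, a synthetase that activates RNase L, stood at 12.9, 11.4 and 12.1 CPM in sh-IGFBP6 cells, against 86.7, 86.6 and 82.9 CPM in sh-LUC cells. IFI44L, an interferon-induced protein, went the other way, at 22.9, 25.2 and 23.6 CPM in sh-IGFBP6 cells, against 2.12, 4.51 and 4.07 CPM in sh-LUC cells. Promoters of these 3 genes are shown because they carry the interferon-stimulated response element, the site of the STAT and IRF factors, on either side of the difference. The sequences are the 250 bases before the gene start in RefSeq (GRCh38.p14), 5′ to 3′ on the gene's strand, with matches to TTTCNNTTTC or its reverse complement GAAANNGAAA in capitals. They span chr1:89065209-89065458 (minus strand) for GBP1, chr12:112938224-112938473 (plus strand) for OAS3 and chr1:78620198-78620447 (plus strand) for IFI44L.
GBP1: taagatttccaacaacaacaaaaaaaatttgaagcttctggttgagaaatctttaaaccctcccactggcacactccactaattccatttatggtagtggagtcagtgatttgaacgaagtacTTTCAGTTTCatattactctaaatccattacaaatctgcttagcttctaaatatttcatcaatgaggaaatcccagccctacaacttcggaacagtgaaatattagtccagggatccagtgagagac
OAS3: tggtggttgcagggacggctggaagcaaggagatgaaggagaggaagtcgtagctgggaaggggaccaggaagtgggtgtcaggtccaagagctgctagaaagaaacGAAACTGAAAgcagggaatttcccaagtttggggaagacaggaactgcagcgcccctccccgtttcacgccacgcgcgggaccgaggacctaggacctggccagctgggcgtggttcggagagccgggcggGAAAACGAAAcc
IFI44L: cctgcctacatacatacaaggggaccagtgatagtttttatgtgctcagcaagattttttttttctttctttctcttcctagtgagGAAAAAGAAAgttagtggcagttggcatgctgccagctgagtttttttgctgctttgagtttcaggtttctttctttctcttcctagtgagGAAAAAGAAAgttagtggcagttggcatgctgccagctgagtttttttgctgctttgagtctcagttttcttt
GBP1 had 1 match, 127 bases before the start, OAS3 had 2, at 143 and 12 bases, and IFI44L had 2, at 164 and 73 bases. Over windows of 250 bases before to 50 after each annotated start, 26 of the 39 tested interferon-stimulated genes in the promoter table (66.7%) held a match on either strand, against 4.09% of 10192 tested protein-coding genes. Of the members in the table, 5 of 7 called higher held it, 17 of 24 called lower and 4 of 8 not called. A match is a description of letters, not of a bound site.

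Lysosomal genes were mostly lower, and metabolic groups were mixed. Of 46 tested lysosomal hydrolases and membrane proteins 31 were called lower, 7 higher and 8 not called, with a median of -0.59. CTSD, the aspartic protease cathepsin D, stood at 37.9, 39.7 and 36.4 CPM in sh-IGFBP6 cells, against 976, 956 and 874 CPM in sh-LUC cells. CTSC, the dipeptidyl peptidase that activates serine proteases, was among the 7 higher ones, at 357, 345 and 337 CPM in sh-IGFBP6 cells, against 98.4, 104 and 101 CPM in sh-LUC cells. Of 28 tested genes of cholesterol synthesis and uptake 16 were called higher, 8 lower and 4 not called, with a median of 0.32.

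Among 40 tested genes of glycolysis and the hypoxia response 21 were called lower, 12 higher and 7 not called. SLC16A3, the lactate exporter MCT4, stood at 53.6, 53 and 50.5 CPM in sh-IGFBP6 cells, against 507, 485 and 484 CPM in sh-LUC cells, while HK2 had a log2 fold change of 1.06. Targets of the oxidative stress factor NRF2 were split, with 12 called higher, 9 lower and 8 not called among 29. Their median was -0.03, and 2 were called higher and 2 lower by 4-fold or more. NQO1, a quinone reductase that NRF2 induces, stood at 86.1, 85.2 and 90.8 CPM in sh-IGFBP6 cells, against 381, 405 and 470 CPM in sh-LUC cells. ABCC3, an export pump of glutathione and bile acid conjugates, had a log2 fold change of -3.85. Of 32 tested genes of the integrated stress response 19 were called higher, 10 lower and 3 not called. PHGDH, the first enzyme of serine synthesis, stood at 34.9, 40.1 and 33.2 CPM in sh-IGFBP6 cells, against 3.18, 4.21 and 4.79 CPM in sh-LUC cells. Nuclear-encoded oxidative phosphorylation genes were split, with 27 called higher, 19 lower and 30 not called among 76. The share called was 60.5%, against 64.6% of all tested genes.

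Genes of ribosome assembly and DNA replication were mostly higher in sh-IGFBP6 cells, while chaperone genes went both ways. Of 42 tested ribosome biogenesis and nucleolar genes 36 were called higher, none lower and 6 not called, with a median of 0.78. DDX21, a nucleolar RNA helicase, stood at 695, 698 and 722 CPM in sh-IGFBP6 cells, against 214, 218 and 229 CPM in sh-LUC cells. RRP12, an export factor of preribosomes, stood at 261, 238 and 252 CPM in sh-IGFBP6 cells, against 53.1, 60.4 and 49.8 CPM in sh-LUC cells. POLR1B, a catalytic subunit of RNA polymerase I, and NOLC1, a nucleolar phosphoprotein, had log2 fold changes of 1.90 and 1.43. Of 34 tested heat shock and chaperonin genes 17 were called higher, 13 lower and 4 not called. The chaperonin subunits CCT7, CCT5, CCT4 and CCT2, which fold actin and tubulin, had log2 fold changes of 1.53, 1.02, 1.11 and 1.00, whereas DNAJB1, a stress-inducible cochaperone, had one of -1.22. Of 52 tested DNA replication genes 29 were called higher, 7 lower and 16 not called, with a median of 0.43. MCM3, a subunit of the replicative helicase, stood at 544, 542 and 555 CPM in sh-IGFBP6 cells, against 276, 308 and 278 CPM in sh-LUC cells. TYMS, which makes thymidylate, was among the 7 lower ones, with a log2 fold change of -0.83. Mitosis and spindle genes did not lean either way, with 14 called higher, 17 lower and 16 not called among 47. The share called was 66.0%, against 64.6% of all tested genes. The G1 genes CCND1 and CDK4 went in opposite directions, CCND1 being lower at 379, 356 and 368 CPM in sh-IGFBP6 cells, against 1159, 1139 and 1101 CPM in sh-LUC cells, and CDK4 higher, with a log2 fold change of 1.29.

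**Figure D3:**
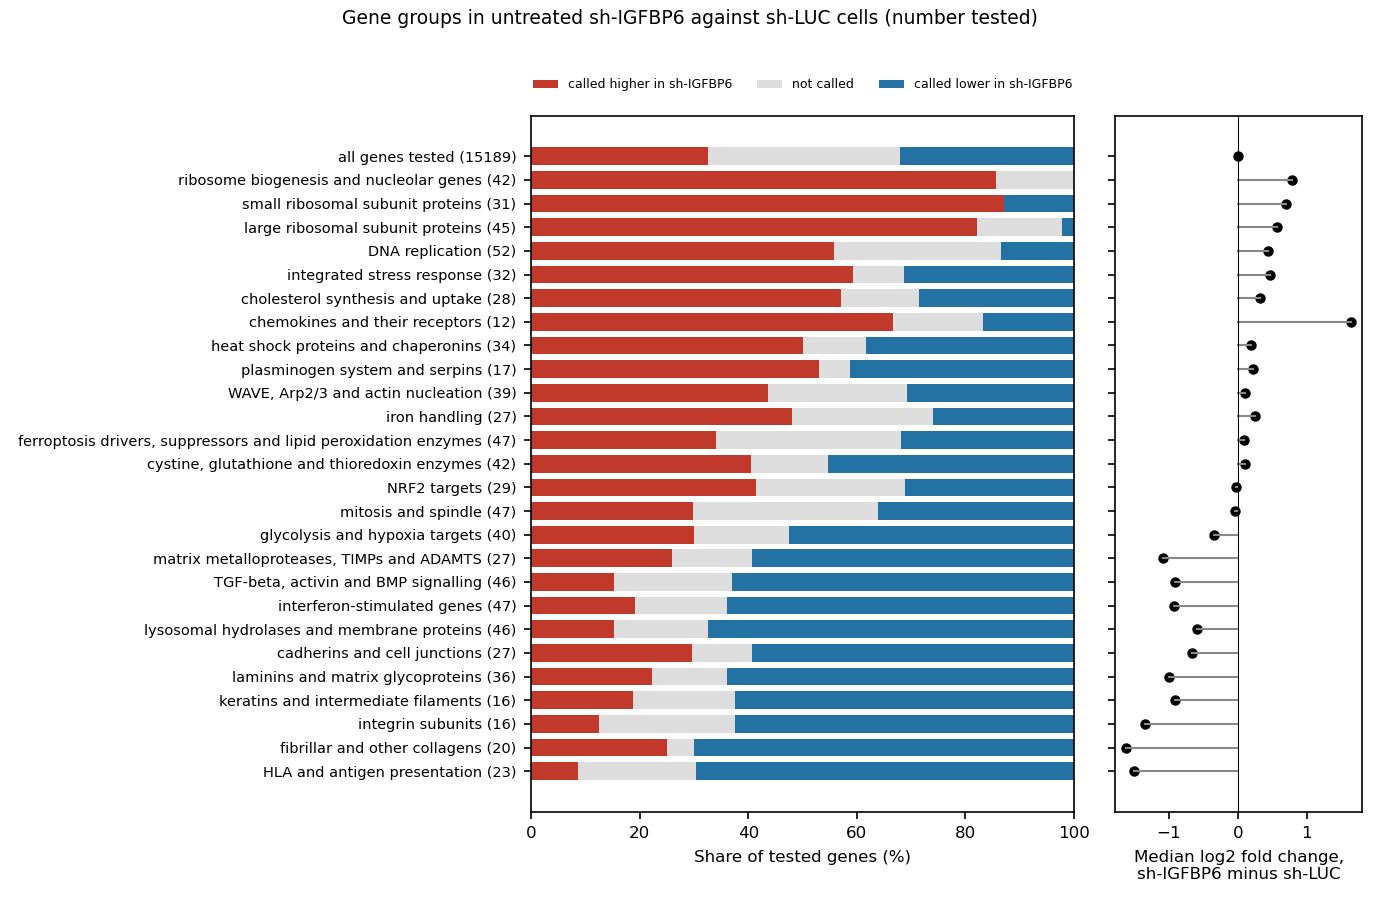
Left, the share of tested genes in each group called higher in sh-IGFBP6 cells, not called and called lower (x axis, percent), beside all 15189 genes. Right, the median log2 fold change. Ribosome biogenesis genes have no member called lower, and the HLA, collagen and integrin groups have the lowest medians.

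At 131 genes counts were seen only in sh-IGFBP6 cells and at 107 only in sh-LUC cells, where a gene had a mean of at least 2 CPM in one line and no count in any untreated library of the other. Of these, 59 and 78 were protein-coding. A count of 0 in 3 libraries allows up to 0.291 CPM in sh-LUC cells and 0.239 CPM in sh-IGFBP6 cells (3 counts over the group), so the fold changes are lower bounds. CCND2, a G1 cyclin, stood at 122, 132 and 109 CPM in sh-IGFBP6 cells with no count in sh-LUC cells, at least 416-fold higher. EPHA3 and EPHA7, receptors for ephrin-A ligands, averaged 34.5 ± 3.6 and 27.4 ± 2.2 CPM (SD, n = 3) in sh-IGFBP6 cells, again with no count in sh-LUC cells. NCKAP1L and ABI3, subunits of the actin-nucleating WAVE complex known from blood cells, averaged 239.8 ± 0.9 and 25.3 ± 2.6 CPM (SD, n = 3) in sh-IGFBP6 cells and had no count in sh-LUC cells. Leukocyte markers did not accompany them: 5 of 15 had no count in any of the 6 libraries, PTPRC (CD45) had 1 count in sh-IGFBP6 cells and 24 in sh-LUC cells, and the 15 summed to 3.85 to 4.82 CPM in sh-IGFBP6 libraries, against 8.49 to 9.62 CPM in sh-LUC libraries. TIE1, an endothelial receptor, had 2277 counts in sh-IGFBP6 cells and 1 in sh-LUC cells. The endothelial markers CDH5 and VWF had 1 and 5 counts in sh-IGFBP6 cells, against 0 and 1 in sh-LUC cells. Of 6 tested endothelial markers 2 were called higher (TIE1 and ROBO4), 2 lower and 2 not called. The lower ones were PECAM1 and ESAM, with log2 fold changes of -1.71 and -0.77. The 12 endothelial markers summed to 289 to 299 CPM in sh-IGFBP6 libraries, against 107 to 115 CPM in sh-LUC libraries, most of it TIE1, ROBO4 and ESAM, and ERG, EMCN and PLVAP had no count in any of the 6. The 12 fibroblast markers summed to 12.8 to 16.3 CPM in sh-IGFBP6 libraries, against 70.0 to 82.7 CPM in sh-LUC libraries. Most of the sh-LUC sum was COL1A1 and PDGFRB, both called lower, and ACTA2, the only other tested marker, was not called. COL1A2 and DCN had no count in sh-IGFBP6 cells and 1 each in sh-LUC cells. The untested COL3A1 and PDGFRA went the other way, with 28 and 7 counts in sh-IGFBP6 cells, against 7 and 2 in sh-LUC cells.

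In the other direction INHBB, the activin beta B chain, had no count in sh-IGFBP6 cells, against 208, 187 and 190 CPM in sh-LUC cells, and was at least 818-fold lower in sh-IGFBP6 cells. L1CAM, a neural cell adhesion molecule, had no count in sh-IGFBP6 cells, against 64.8, 57.1 and 58.9 CPM in sh-LUC cells. COL6A2, a chain of collagen VI, had no count in sh-IGFBP6 cells, against 46.0, 51.7 and 52.9 CPM in sh-LUC cells. The silent state was largely kept under treatment. Of the 131 genes, 97 had at most 3 counts over the 6 DHA and erastin libraries of the sh-LUC line, and 51 had none. Of the 107 genes, 97 had at most 3 counts over the 6 treated sh-IGFBP6 libraries, and 44 had none.

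Promoters of genes from both sides are shown for their CpG dinucleotides, the sites of DNA methylation, which was not measured here. The sequences are the 250 bases before the gene start in RefSeq (GRCh38.p14), with CpG dinucleotides in capitals, at chr3:89107371-89107620 for EPHA3, chr2:120345886-120346135 for INHBB and chr21:46097862-46098111 for COL6A2, all on the plus strand. EPHA3 had counts only in sh-IGFBP6 cells, INHBB and COL6A2 only in sh-LUC cells.
EPHA3: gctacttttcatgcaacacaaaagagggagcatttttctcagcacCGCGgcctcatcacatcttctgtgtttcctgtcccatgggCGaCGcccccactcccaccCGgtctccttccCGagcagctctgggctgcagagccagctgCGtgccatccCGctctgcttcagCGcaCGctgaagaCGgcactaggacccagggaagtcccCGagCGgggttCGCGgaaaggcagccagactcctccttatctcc
INHBB: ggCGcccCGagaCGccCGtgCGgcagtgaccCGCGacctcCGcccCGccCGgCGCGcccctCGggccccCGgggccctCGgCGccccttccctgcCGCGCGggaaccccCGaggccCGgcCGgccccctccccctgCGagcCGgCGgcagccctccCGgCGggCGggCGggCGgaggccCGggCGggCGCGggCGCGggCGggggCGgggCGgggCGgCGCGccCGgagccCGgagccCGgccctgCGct
COL6A2: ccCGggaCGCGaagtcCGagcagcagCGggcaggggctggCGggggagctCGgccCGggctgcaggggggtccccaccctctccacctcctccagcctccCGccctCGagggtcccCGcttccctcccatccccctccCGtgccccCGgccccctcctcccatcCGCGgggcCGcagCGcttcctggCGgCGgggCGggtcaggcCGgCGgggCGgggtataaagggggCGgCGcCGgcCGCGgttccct
These stretches held 15 CpG in EPHA3, 46 in INHBB and 28 in COL6A2. Over windows of 250 bases before to 50 after the start, taking the richest window of each gene, the median was 13 CpG in 38 matched protein-coding genes with counts only in sh-IGFBP6 cells (quartiles 4 and 28). The median was 27 in 53 matched genes with counts only in sh-LUC cells (quartiles 10 and 36), and 28 in 10192 tested protein-coding genes (quartiles 21 and 36). These are descriptions without a test, and the table held no window for the remaining genes.

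Several large differences were shared by neighbouring genes. These runs were picked after their values were seen, as 4 or more consecutive tested genes called in 1 direction at 4-fold or more, and they get no test. Coordinates are of GENCODE release 29 on GRCh38. There were 30 such runs, 15 higher and 15 lower in sh-IGFBP6 cells, of which some are described here. Chromosome 21 held 3, of which 4 genes from 23065491 to 24547942 were higher, with a median log2 fold change of 4.33, and the other two were lower. From 42311667 to 42775509, TFF3, TFF2, SLC37A1 and PDE9A had no count in sh-IGFBP6 cells, against means of 3.43, 5.53, 34.9 and 15.5 CPM in sh-LUC cells. From 45405137 to 46132849, 7 genes from COL18A1 to COL6A2 had a median log2 fold change of -8.27, and COL6A1 stood at 2.71, 2.31 and 5.41 CPM in sh-IGFBP6 cells, against 234, 217 and 204 CPM in sh-LUC cells. RRP1B and MCM3AP, from the same region and picked after their values were seen, were expressed in both lines. RRP1B averaged 120.9 ± 14.3 CPM in sh-IGFBP6 cells and 113.2 ± 6.7 CPM in sh-LUC cells. MCM3AP averaged 103.7 ± 4.5 CPM in sh-IGFBP6 cells and 114.7 ± 4.0 CPM in sh-LUC cells (SD, n = 3 each). Neither was called, although MCM3AP was called lower under 5 alternative settings (log2 fold changes of -0.16 to -0.18). They do not stand for all neighbours, since most tested genes of the longer segment around both stretches, described below, were called lower.

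Several runs were families of adjacent paralogs, in both directions. The type II keratins KRT80, KRT7, KRT86, KRT81 and KRT83 on chromosome 12 (52168996 to 52321398), with KRT7-AS and KRT87P among them, were all lower in sh-IGFBP6 cells, and KRT86 overlaps KRT81, so that their reads cannot be fully separated. The calcium-binding proteins S100A6, S100A4, S100A3 and S100A2 on chromosome 1 (153533603 to 153567890) were lower. S100A6 stood at 94.6, 80.6 and 83.9 CPM in sh-IGFBP6 cells, against 940, 958 and 992 CPM in sh-LUC cells, and S100A4, a protein linked to motility, at 1.2, 0.578 and 0.492 CPM in sh-IGFBP6 cells, against 47.8, 50.8 and 64.9 CPM in sh-LUC cells. The cysteine protease inhibitors CST3, CST4, CST1, CST2 and CST7 on chromosome 20 (23626706 to 24959928) were lower, CST3 (cystatin C) with a log2 fold change of -2.04 and CST7 with one of -6.73. The cytidine deaminases APOBEC3C, APOBEC3D, APOBEC3F and APOBEC3G on chromosome 22 (39014083 to 39087743) were lower too. APOBEC3C stood at 25.6, 26.4 and 33.0 CPM in sh-IGFBP6 cells, against 146, 150 and 145 CPM in sh-LUC cells. Among the higher runs were protocadherin genes from PCDHB5 to PCDHB16 on chromosome 5 (141135218 to 141186399, median log2 fold change 2.40) and the aldo-keto reductases AKR1E2, AKR1C1 and AKR1C2 on chromosome 10 (4786629 to 5018031, median 3.11). Olfactory receptor genes on chromosome 11 (5303444 to 5505652, median 4.05) and keratin-associated proteins with KRT34 on chromosome 17 (41059240 to 41382403, median 6.66) were also higher. Other olfactory receptor genes, such as OR5P2 and OR10A6, lay in a lower run of 11 genes on chromosome 11 (7513298 to 7931268, median -4.45). Near-identical copies in such families can share reads. Also higher, MMP10, MMP1 and MMP3 with the pseudogene WTAPP1 formed a run on chromosome 11 (102746968 to 102843803), in which MMP10 had 0, 1.35 and 0.246 CPM in sh-IGFBP6 cells and no count in sh-LUC cells, and was not called without sh-IGFBP6 replicate 2 (log2 fold change 2.73).

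Differences of smaller size were shared over long chromosome segments, described as runs of overlapping windows of 25 tested genes whose median log2 fold change was at least 0.5 in size. There were 61 such segments with a higher median and 54 with a lower one, and they held 6289 tested genes. On chromosome 19, 212 tested genes from 10221433 to 19203424 had a median of -0.74, with 145 called lower and 11 higher. TPM4, an actin-binding tropomyosin in it, stood at 347, 348 and 352 CPM in sh-IGFBP6 cells, against 930, 948 and 972 CPM in sh-LUC cells, and CALR, a chaperone of the endoplasmic reticulum, had a log2 fold change of -0.92. On chromosome 21, 113 tested genes from 31659622 to 46665124, which span both of the lower stretches, had a median of -0.68, with 76 called lower and 9 higher. On chromosome X, 117 tested genes from 49273054 to 101390796 had a median of -0.64, with 73 called lower and 15 higher, HUWE1, a ubiquitin ligase, being among the lower ones with -0.82.

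Segments with higher medians were found on chromosomes 1, 2, 12 and 14 among others. On chromosome 2, 70 tested genes from 72175984 to 85582031 had a median of 0.71, with 45 called higher and 12 lower, and the chaperonin gene CCT7 lies there. On chromosome 1, 95 tested genes from 35557473 to 43978295 had a median of 0.67, with 65 called higher and 7 lower; among them was YBX1, an RNA-binding protein, at 696, 682 and 718 CPM in sh-IGFBP6 cells, against 382, 404 and 368 CPM in sh-LUC cells. On chromosome 12 both directions met. From 106245613 to 120194710, 94 tested genes had a median of -0.61, with 65 called lower and 9 higher, and from 118246084 to 133214831, a segment that overlaps the first, 136 tested genes had a median of 0.66, with 87 called higher and 15 lower. ATP2A2, the calcium pump of the endoplasmic reticulum in the lower segment, averaged 386.2 ± 6.3 CPM in sh-IGFBP6 cells and 644.2 ± 7.4 CPM in sh-LUC cells. MLEC, a lectin of the endoplasmic reticulum in the higher segment, averaged 668.4 ± 4.6 CPM in sh-IGFBP6 cells and 406.1 ± 7.7 CPM in sh-LUC cells (SD, n = 3 each). IGFBP6 itself, at 53097436 to 53102345 on chromosome 12, lies in a segment from 53006158 to 72670757 whose median was 0.67, with 112 of 183 tested genes called higher and 21 lower. By whole chromosome the medians ran from -0.54 on chromosome 21 to 0.46 on chromosome 12. DNA copy number was not measured, and its part in these segments was not tested.

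**Figure D4:**
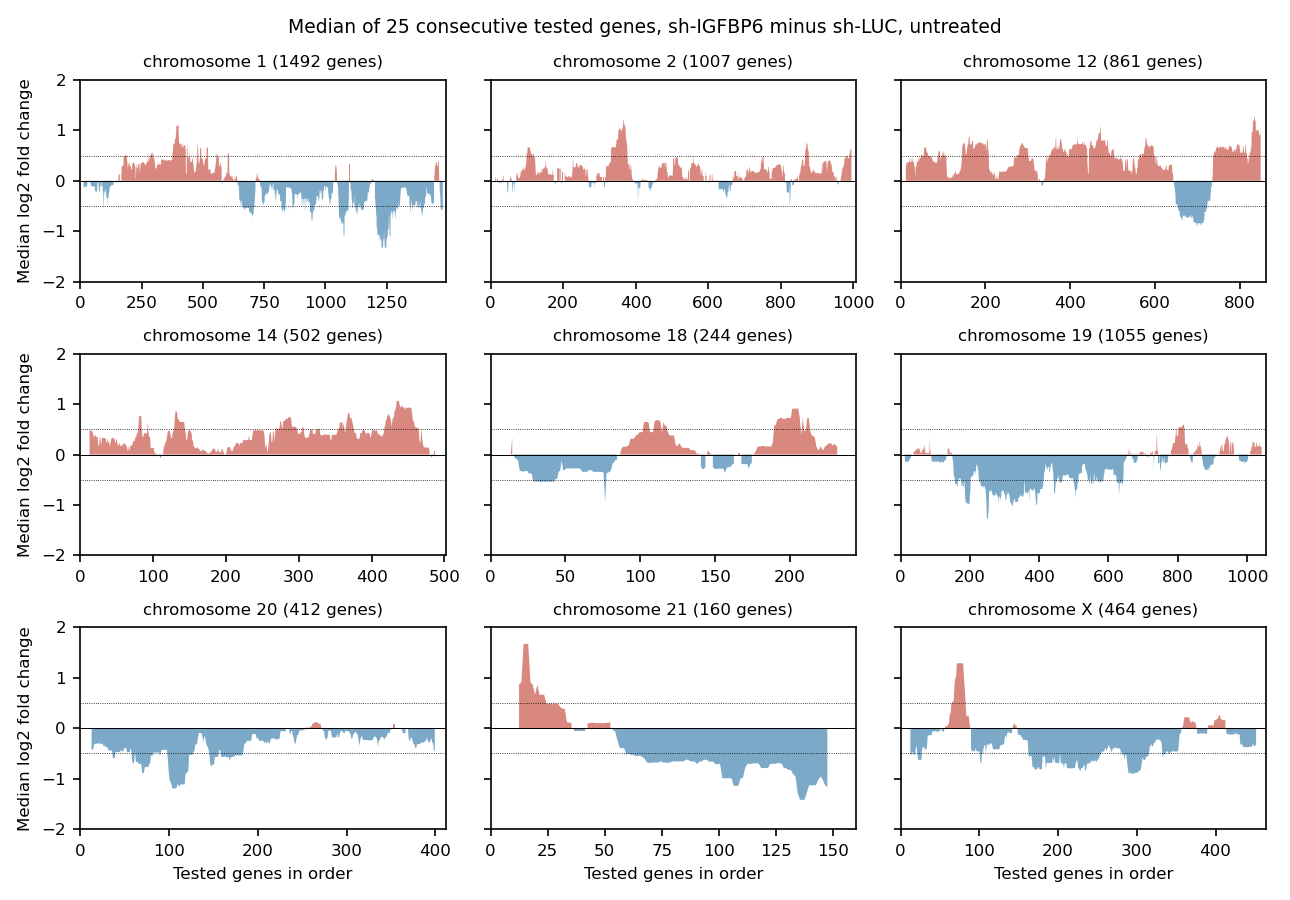
Median log2 fold change (y axis) of 25 consecutive tested genes by their order along 9 chromosomes (x axis), sh-IGFBP6 minus sh-LUC, with dotted lines at 0.5 and -0.5. Chromosomes 19, 20, 21 and X run mostly below 0 and chromosomes 12 and 14 mostly above, and the long arm of chromosome 12 holds a dip between higher stretches.

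The line difference was also read in the libraries that the untreated comparison does not use. Under DHA 69.9% of the 15189 genes were called between the lines, and under erastin 67.6%. Of the 9811 genes called in untreated cells, 7960 were called in the same direction under DHA, 291 in the opposite direction and 1560 were not called. Under erastin the counts were 7493, 348 and 1970. Of the 1639 genes called at 4-fold or more, 1574 were called in the same direction under DHA and 1 in the opposite direction, and 1553 and 8 under erastin. The 3 contrasts share no samples, but share the fit's estimate of the spread. The size of the line difference itself differed from that in untreated cells for 20.6% of tested genes under DHA and for 26.2% under erastin. MMP1, EPB41L3, TIMP3 and CDH11 kept differences of more than 8 on the log2 scale under both agents. The differences of the chaperone genes HSP90AA1 and HSPA8 were 0.98 and 0.67 in untreated cells and 1.54 and 1.53 under DHA. Under erastin they were -0.09 and -0.05, and neither was called. For PHGDH the difference was 0.70 under DHA and 0.73 under erastin, against 3.12 in untreated cells. The segments described above kept their direction: the chromosome 19 segment had medians of -0.73 under DHA and -0.68 under erastin, and the chromosome 2 segment 0.64 under both. 1 erastin library of the sh-IGFBP6 line stands apart, with 609936 gene counts and 54.4% of them from mitochondrial ribosomal RNA. Without it, 7603 of 10010 genes called in untreated cells were called in the same direction under erastin.

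**Figure D5:**
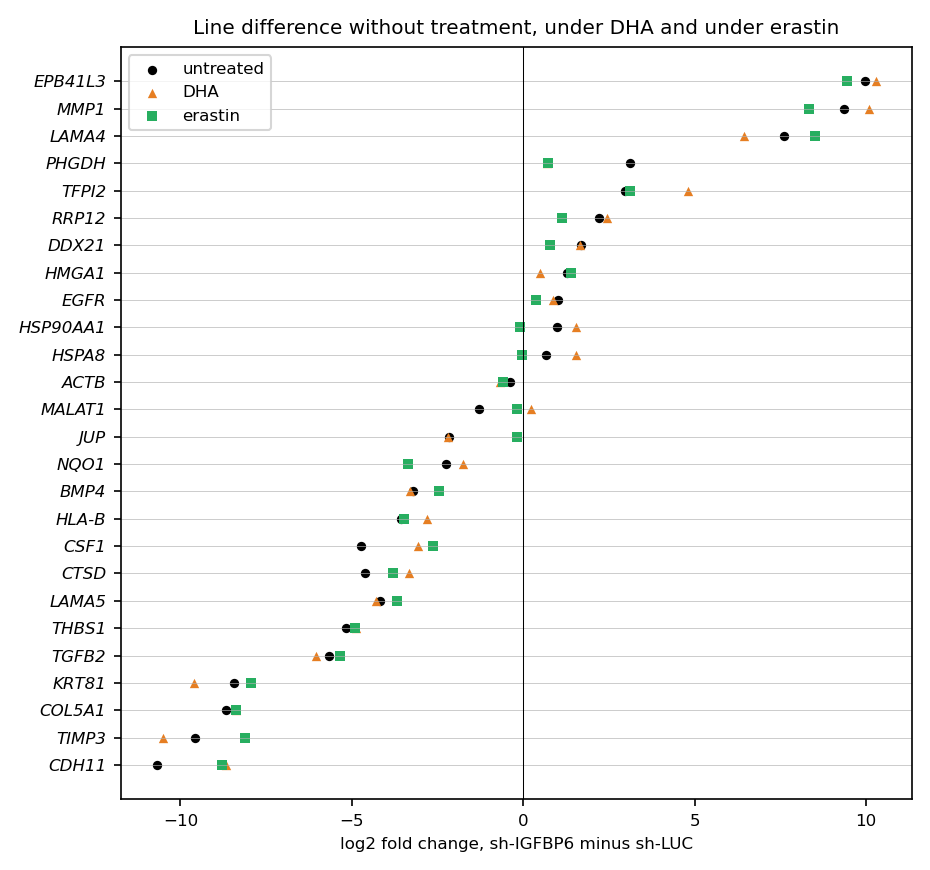
Log2 fold change of sh-IGFBP6 against sh-LUC cells (x axis) for 26 genes, in untreated cells, under DHA and under erastin. Most genes stay on one side of 0 in all 3, with MALAT1 above 0 under DHA and HSP90AA1, HSPA8, MALAT1 and JUP near 0 under erastin.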

How the data were processed

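RNA was extracted with QIAzol and miRNeasy columns, depleted of ribosomal RNA and made into MGIEasy libraries, per the labels' protocols. The authors' deposited values are raw read counts per gene, made with cutadapt 4.4, STAR 2.7.7a and featureCounts on GRCh38, per the submitters' processing notes. Which annotation and which strand setting the counting used, and its featureCounts version, is not given in the sources used here. Reads of overlapping and antisense genes therefore cannot be told apart. The table held 60709 genes and 1 line with counts that named no gene (at most 0.0108% of a library), which was left out. Of the gene IDs, 60480 were named by a gene-name table and 213 by GENCODE 29, and 16 stayed unnamed. Coordinates came from GENCODE 29 on GRCh38.

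Genes were filtered with edgeR's filterByExpr (minimum count 10, minimum total 15), scaled by TMM and fitted with edgeR 4.0.16 (quasi-likelihood, robust) over all 18 libraries with 1 coefficient per group. Calls used Benjamini-Hochberg adjusted p below 0.05 over 15189 genes. The fit was also run on simulated counts, with 50 genes changed at each fold of 1.5, 2, 3 and 4. Of 14436 unchanged genes 11 were called. Far more genes differ between these lines, so the simulation does not test such a setting. CPM are counts divided by the TMM effective library size. The standard error is the log2 fold change divided by the square root of F. Depth covers counting error only. Replicate counts differed by more than a Poisson draw in every pair, and no 2 libraries held identical values.

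The gene groups and the genes compared were chosen with earlier results of these data known. The genes named are IGFBP6, the 10 largest gains and losses in mean CPM, the 6 highest genes in each direction with no count in the other line, called members of each group by smallest p or largest fold change, cell type markers, and the most abundant called genes of each segment. The largest gains and losses were taken among called genes whose libraries do not overlap between the lines. Neighbouring runs, the genes near them, and others outside these rules were chosen after their values were seen. Promoters were read from RefSeq tables (GRCh38.p14), in windows of 250 bases before to 50 after each start. Alternatives were other scalings, filters, sample sets, DESeq2 1.42.0, a test against a fold of 1.5, a replicate block and leaving out each library.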

Additional observations from a re-analysis of the deposited data

Results flagged for a closer look

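The line difference of 2 named genes was called in opposite directions in untreated cells and under DHA, by a test of the difference itself in edgeR's quasi-likelihood fit. For DNAJB1, a cochaperone, the log2 fold change of sh-IGFBP6 against sh-LUC cells was 0.87 under DHA and -1.22 in untreated cells, a difference of 2.09 ± 0.09 (SE; edgeR adjusted p = 2.9e-34). For MALAT1 it was 0.21 under DHA and -1.28 in untreated cells, a difference of 1.495 ± 0.10 (SE; edgeR adjusted p = 2.0e-25). Over all tested genes such a difference, in either direction, was called for 3124 under DHA and 3973 under erastin.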

How the results depend on the processing

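The number of genes called lay between 8113 (library size only) and 10226 (no filter on low counts), against 9811 as reported, under every alternative except the test against a fold of 1.5, which called 4705. DESeq2 called 8801, and leaving out each replicate gave 9285 to 9585. With the replicate block 9842 genes were called, 9782 of them shared in direction, 3996 were called at 2-fold or more, and IGFBP6 stood at -3.73. The numbers do not pair the libraries: deviations of same-numbered libraries had r = -0.029, -0.013 and -0.031 across genes, and none correlated best with its own number. IGFBP6 was called under all 15 alternatives, with a log2 fold change of -3.45 to -4.13 when a replicate was left out. Scaling by library size alone moved the median of all genes to 0.11. Genes with counts in 1 line only numbered 234 and 58 for sh-IGFBP6 and 191 and 57 for sh-LUC at minimum means of 1 and 5 CPM. They numbered 128 to 180 for sh-IGFBP6 and 107 to 146 for sh-LUC when a replicate was left out. Windows of 50 genes gave 43 chromosome segments. Of 2232 recomputed fold changes of 150 named genes, 0 reversed, 8 lost the call and 7 gained it. Of 1650 recomputed counts in the gene groups 106 moved by more than 1.5 times. Setting aside sh-IGFBP6 erastin replicate 3, chosen after seeing the data for the treated contrasts, left 8073 genes called in the same direction under DHA and 7603 under erastin. Below about 1 CPM a gene rests on a few counts per library, which limits what these depths can show.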
